A study of Mus musculus with 10 samples.

Results

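Mouse embryonic stem cells (ESCs) that received a siRNA against Cbx3 were compared with ESCs that received a control siRNA. The comparison rests on 4 of the 10 libraries of the series, 2 from Cbx3 siRNA ESCs and 2 from control siRNA ESCs, and on the 11315 of 24520 genes that reached 1 RPKM (reads per kilobase of a transcript for every M reads mapped, with M for mega) in at least 2 of these 4 libraries. Both groups were cells of the line V6.5, and the labels' growth protocol places undifferentiated cells of this line on irradiated mouse embryonic fibroblasts in medium with serum and leukemia inhibitory factor (LIF). The control siRNA was aimed at luciferase, a gene mouse cells lack. The rest of the series consists of neural progenitor cells (NPCs) made from the same line, with a Cbx3, a Med26 or a control siRNA. The labels give the time from transfection to harvest for the NPC protocol only, so none is given here for ESCs. The labels number the replicates of each group 1 and 2 and call them biological, and do not say what separated them or whether the numbers pair the groups, so a p-value here covers no more than the spread among these libraries.

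Cbx3 encodes HP1 gamma, a chromodomain protein that reads methylated lysine 9 of histone H3 (H3K9). It binds silent heterochromatin together with its relatives HP1 alpha (Cbx5) and HP1 beta (Cbx1), and it is also found along transcribed genes. The H3K9 methyl groups it reads on genes in euchromatin are laid down chiefly by the partner enzymes G9a (Ehmt2) and GLP (Ehmt1). ESCs in serum and LIF are held in the naive state by transcription factors such as Oct4 (Pou5f1), Sox2 and Nanog, and a part of such cultures carries RNAs of the primed epiblast, the next stage of development.

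The libraries carried the RNAs of the labelled cell type. All 10 fixed pluripotency markers were present, and their summed level was 1605 and 1254 RPKM in Cbx3 siRNA ESCs, against 1793 and 1250 RPKM in control ESCs. Markers of feeder fibroblasts summed to 64.9 and 74.1 RPKM in Cbx3 siRNA ESCs and to 52.2 and 81.4 RPKM in control ESCs, with 1 of 10, Lum, at 0 in all 4 libraries. S100a4 alone held 34.4 and 33.2 RPKM of these sums in Cbx3 siRNA ESCs and 27.2 and 34.3 RPKM in control ESCs. Dcn was under 1 RPKM in all 4 libraries. Neural progenitor markers summed to 18.4 and 24.7 RPKM in Cbx3 siRNA ESCs and to 18.4 and 27.6 RPKM in control ESCs, primitive endoderm markers to at most 5.96 RPKM in any library and mesoderm markers to at most 2.11 RPKM. Trophoblast markers summed to 16.4 and 15.0 RPKM in Cbx3 siRNA ESCs, against 8.71 and 9.54 RPKM in control ESCs. Markers of the 2-cell-like state summed to 4.12 and 1.63 RPKM in Cbx3 siRNA ESCs, against 0.371 and 0.372 RPKM in control ESCs. The groups did not overlap in either sum, nor in that of the mesoderm markers, which was lower in Cbx3 siRNA ESCs. Of all genes tested, 20.9% did not overlap either. Most of the trophoblast sum was Tfap2c and Krt7, while Cdx2, Elf5, Gata3 and Hand1 were under 1 RPKM in all 4 libraries. Krt7 itself overlapped, at 0.939 and 5.97 RPKM in Cbx3 siRNA ESCs against 0.615 and 2.99 RPKM in control ESCs. Replicates of 1 group differed more than the 2 treatments did. Across the tested genes, libraries with the same replicate number correlated at r = 0.991 in both pairs, and replicates of the same treatment at 0.943, on log2(RPKM + 1). The median gene differed by 0.26 between the Cbx3 siRNA replicates and by 0.28 between the control replicates on the log2 scale, but by 0.14 within replicate 1 and 0.12 within replicate 2. The low RPKM values showed the same split, since 37.9% of them in Cbx3 siRNA replicate 1 and 39.2% in control replicate 1 stood at an odd number of read steps, against 59.5% in Cbx3 siRNA replicate 2 and 58.7% in control replicate 2. The NPC libraries lay between 35.7% and 40.2%, near the ESC replicate 1 libraries. Depth estimated from these steps was 33.6 M and 23.2 M reads in Cbx3 siRNA ESCs and 51.3 M and 24.0 M in control ESCs. Whether a step stands for the same number of reads in both kinds of library was not tested. Cbx3 siRNA replicate 1 stood apart in Lars2, listed at 819 RPKM there and at 81.1 RPKM in Cbx3 siRNA replicate 2, against 34.98 and 81.8 RPKM in the controls, and in 1 row with no symbol in the reference tables, at 13662 RPKM against 4020 RPKM in Cbx3 siRNA replicate 2 and 4830 and 4723 RPKM in the controls. Lars2 did not pass the test described next (adjusted p = 0.236), and the part of these differences in other results was not tested.

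The target of the siRNA was low in both treated libraries. Cbx3 stood at 1.01 and 1.96 RPKM in Cbx3 siRNA ESCs, against 13.99 and 56.4 RPKM in control ESCs, in replicate order. The groups did not overlap, and the control replicates differed from each other by far more than the treated ones did. The level left was 0.0720-fold of control in replicate 1 and 0.0347-fold in replicate 2. On log2(RPKM + 1), with the replicate number as a block, Cbx3 fell by 3.59 (SE 0.26, limma adjusted p = 0.0022, lower in 2 of 2 pairs). Cbx3 has 6 named pseudogenes in the RefSeq gene table, and reads shared with them could not be separated. The call was lost without the block (adjusted p = 0.9998), without a filter on low values (0.595) and with a robust estimate of the spread (0.1245). Its relatives did not pass the test: Cbx1 stood at 72.5 and 75.4 RPKM in Cbx3 siRNA ESCs and 81.2 and 73.7 RPKM in control ESCs, and Cbx5 at 58.4 and 72.3 RPKM against 67.1 and 69.6 RPKM. Their log2 differences were -0.07 (adjusted p = 0.778) for Cbx1 and -0.07 (adjusted p = 0.765) for Cbx5.

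With the block, 70 genes passed an adjusted p of 0.05 (0.619% of those tested), 37 of them higher (0.327%) and 33 lower (0.292%) in Cbx3 siRNA ESCs. In the sentences below, "rose" and "fell" mean that a gene passed this test unless another fit is named. The block leaves 1 residual degree of freedom, and without it limma called 0 genes (119 at an unadjusted p under 0.05), so every such call rests on reading same-numbered libraries as pairs. Testing all 24520 genes with the block also gave 0 calls (1944 at an unadjusted p under 0.05). All 70 had the same sign in both pairs, with changes of at least 0.51 on the log2 scale, and in 58 of them the treated and control libraries did not overlap, against 20.9% of all genes tested. The test favours genes whose 2 pairs agree, so these traits follow largely from the selection and are no separate support. The called genes were 54 protein-coding genes, 12 genes of short RNAs, 2 long noncoding RNAs and 2 transcribed pseudogenes. As a description of size, with folds taken on RPKM + 1, 32 genes were at least 1.5-fold higher in both pairs (0.283%) and 26 at least 1.5-fold lower (0.23%). Over all genes, the difference in replicate 1 correlated with that in replicate 2 at r = 0.372 (0.360 without Cbx3).

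**Figure D1:**
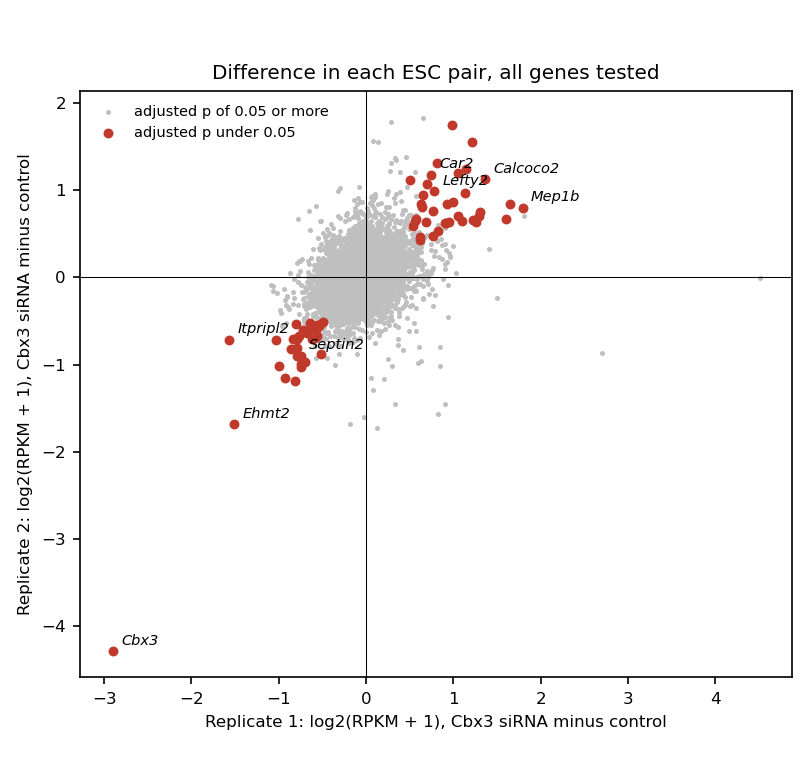
Each point is a gene, placed by its difference, Cbx3 siRNA minus control, in replicate 1 (horizontal) and replicate 2 (vertical) on log2(RPKM + 1), with red points for the 70 genes past the test. The red points lie at the upper right and lower left, a placement that the test itself favours. Cbx3 is farthest from 0 at -2.90 and -4.28, and the grey point at 4.51 on the horizontal axis is Lars2.

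Apart from Cbx3, the clearest fall was in the enzyme that writes the mark HP1 reads. Ehmt2, which encodes the H3K9 methyltransferase G9a, stood at 18.6 and 10.2 RPKM in Cbx3 siRNA ESCs, against 55.0 and 35.1 RPKM in control ESCs. Both treated libraries were below both controls, and within each pair the difference was close in size, at -1.51 and -1.68. Ehmt2 fell by 1.60 (SE 0.09, adjusted p = 0.000547), the smallest adjusted p of any gene. Rnf2, which encodes Ring1b, the ubiquitin ligase of Polycomb repressive complex 1, stood at 32.4 and 24.98 RPKM in Cbx3 siRNA ESCs, against 47.5 and 37.3 RPKM in control ESCs, and fell by 0.55 (SE 0.08, adjusted p = 0.0309). Other chromatin genes that fell were Pml, the core protein of nuclear bodies, by 0.77, the chromodomain helicase gene Chd9 by 0.75, the kinase gene Tlk1 by 0.61 and the histone acetyltransferase gene Kat2b, which has 1 named pseudogene, by 0.56. Setdb1, which encodes another H3K9 methyltransferase, and Trim28, its corepressor, did not pass. Setdb1 stood at 28.7 and 22.6 RPKM in Cbx3 siRNA ESCs and 27.5 and 21.9 RPKM in control ESCs, and Trim28 at 650 and 527 RPKM in Cbx3 siRNA ESCs and 599 and 488 RPKM in control ESCs.

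Several of the other falls were in genes of signalling and of cell structure. Septin2, which encodes a filament-forming GTPase of the cytoskeleton, stood at 56.2 and 56.5 RPKM in Cbx3 siRNA ESCs, against 95.0 and 105.9 RPKM in control ESCs, and fell by 0.82 (SE 0.08, adjusted p = 0.0098). Rptor, the gene of the Raptor subunit of the growth-control kinase complex mTORC1, stood at 4.33 and 3.63 RPKM in Cbx3 siRNA ESCs and 7.93 and 8.21 RPKM in control ESCs, and fell by 0.87 (SE 0.12, adjusted p = 0.0254). In both genes the treated libraries lay close together and below both controls. Erlin2, which encodes an endoplasmic reticulum protein that takes part in the degradation of membrane proteins, stood at 6.66 and 7.06 RPKM in Cbx3 siRNA ESCs against 11.8 and 15.4 RPKM in control ESCs, and fell by 0.88 (SE 0.11). Lef1, the gene of a transcription factor that acts with beta-catenin in Wnt signalling, stood at 0.620 and 2.43 RPKM in Cbx3 siRNA ESCs against 1.85 and 6.79 RPKM in control ESCs, and fell by 1.0003 (SE 0.13, adjusted p = 0.0243). Its groups overlapped, because both replicate 2 libraries were above their replicate 1 counterparts. Epha1, an ephrin receptor gene, fell by 0.88, Lztr1, which encodes an adaptor of a ubiquitin ligase that acts on Ras proteins, by 0.84, Zfp369, a zinc finger gene, by 0.80, and Apela, the gene of a peptide ligand of the apelin receptor, by 0.69. Itpripl2 fell by 1.14 and Fam114a1 by 0.84, both from control levels under 5 RPKM.

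**Figure D2:**
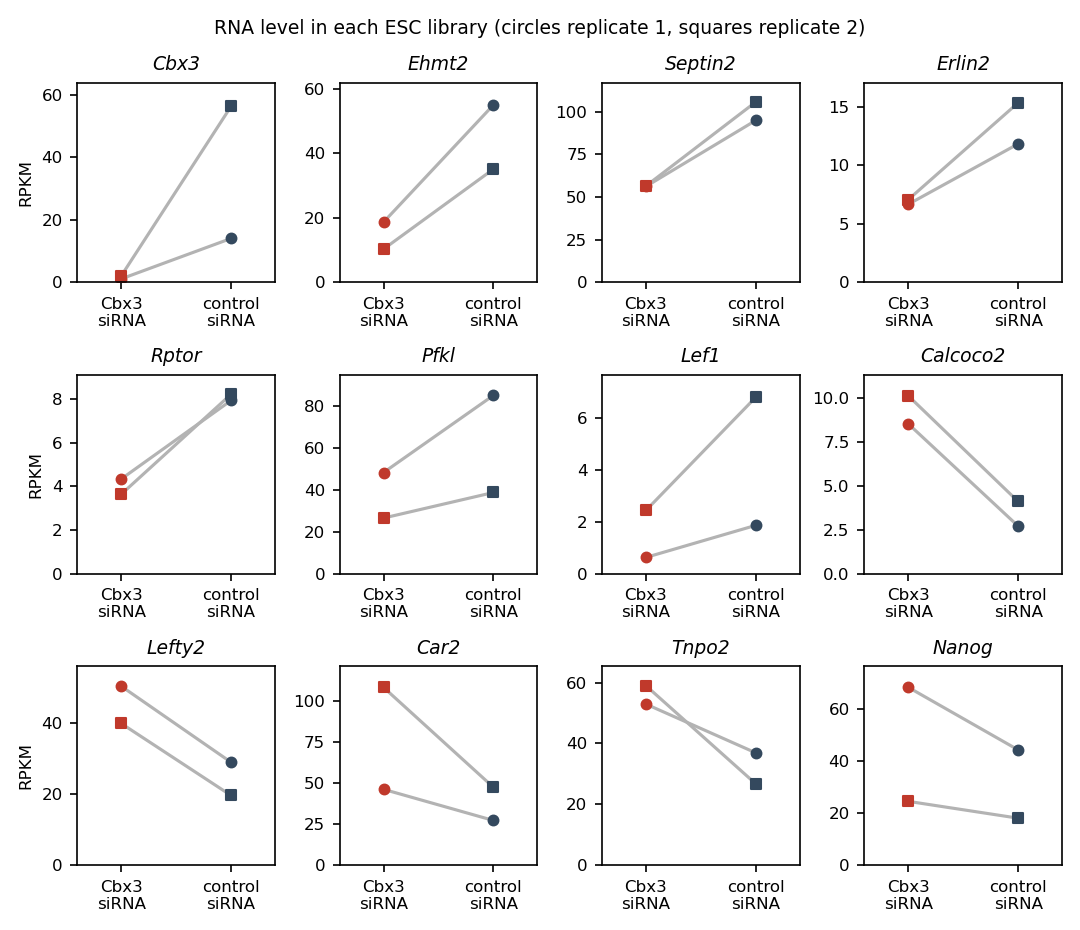
RPKM of 12 genes that passed the test, in Cbx3 siRNA ESCs (red, left) and control ESCs (dark, right), with circles for replicate 1, squares for replicate 2 and lines joining same-numbered libraries; each panel has its own axis from 0. Ehmt2, Septin2, Erlin2 and Rptor are lower in both treated libraries than in both controls, whereas in Lef1, Pfkl, Car2 and Nanog the groups overlap and only the pairs separate them.

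The largest rise among protein-coding genes with levels above 1 RPKM in all 4 libraries was in Calcoco2, which encodes the autophagy receptor NDP52. Calcoco2 stood at 8.53 and 10.1 RPKM in Cbx3 siRNA ESCs, against 2.70 and 4.10 RPKM in control ESCs, and rose by 1.24 (SE 0.12, adjusted p = 0.0098). Lefty2, which encodes a secreted inhibitor of the growth factor Nodal, stood at 50.3 and 39.9 RPKM in Cbx3 siRNA ESCs, against 28.9 and 19.6 RPKM in control ESCs, and rose by 0.88 (SE 0.09, adjusted p = 0.0098). In both genes each treated library was above both controls. Tnpo2, the gene of the nuclear import receptor transportin 2, stood at 52.9 and 59.0 RPKM in Cbx3 siRNA ESCs, against 36.9 and 26.7 RPKM in control ESCs, and rose by 0.81 (SE 0.13, adjusted p = 0.0388). Its groups did not overlap either. Paip2b, which encodes an inhibitor of poly(A)-binding protein, rose by 0.88, without overlap between groups. Car2, the gene of carbonic anhydrase 2, stood at 46.2 and 108 RPKM in Cbx3 siRNA ESCs and 27.2 and 47.5 RPKM in control ESCs, and rose by 0.96 (SE 0.11, adjusted p = 0.0161) with overlapping groups.

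Other rises were in genes of unlike roles. Khdc3, a gene of the maternal protein complex of the early embryo, stood at 24.2 and 4.44 RPKM in Cbx3 siRNA ESCs against 9.20 and 2.25 RPKM in control ESCs, and rose by 1.02. H1f6, the gene of the testis linker histone, stood at 20.3 and 12.9 RPKM in Cbx3 siRNA ESCs against 7.70 and 7.58 RPKM in control ESCs, and rose by 0.997 (SE 0.14, adjusted p = 0.0259). Rpl39l stood at 27.8 and 9.79 RPKM in Cbx3 siRNA ESCs against 8.43 and 5.79 RPKM in control ESCs and rose by 1.14, and Rpl22l1 at 74.0 and 181 RPKM against 47.3 and 103 RPKM and rose by 0.72. The Khdc3 and Rpl22l1 groups overlapped and those of H1f6 and Rpl39l did not. Mep1b, the gene of the protease subunit meprin beta, at 4.57 and 1.05 RPKM in Cbx3 siRNA ESCs against 0.606 and 0.182 RPKM in control ESCs, rose by 1.30, and Cemip, a gene of hyaluronan breakdown, at 1.67 and 3.58 RPKM against 0.282 and 0.994 RPKM, rose by 1.13. In bulk RNA, more RNA in each cell and more cells of a kind that carries it cannot be told apart.

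The 12 short RNA genes are 63 to 126 bases long, and several had levels near or at 0 in 1 group. They include Mir3064 at 2.67 and 1.93 RPKM in Cbx3 siRNA ESCs against 0.582 and 0 RPKM in control ESCs, and Mir677 at 0.382 and 0.552 RPKM against 1.75 and 2.13 RPKM. Their hosts mostly did not move with them: Ddx5, the gene around Mir3064, had a log2 difference of 0.02 (adjusted p = 0.950) and Atp5b, around Mir677, of -0.00 (adjusted p = 0.992). Mir719 differs, since its host Nupl1, a nucleoporin gene, fell by 0.59 and Mir719 by 0.66. Libraries made with this kind of kit are not designed to hold mature microRNAs, so these values say nothing of them.

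For gene lists the fit of all 10 libraries, with the replicate number as a block within ESCs and within NPCs, was used beside the first, because it has 3 residual degrees of freedom. Only 1 of the 3 comes from the ESC libraries and the rest come from NPC replicates. Its p-values for ESCs therefore rest largely on the spread in NPCs. It called 863 genes in ESCs (7.63%), 291 higher (2.57%) and 572 lower (5.06%), and 66 of the 70 were among them. Shifting the libraries to the same median gave 366 higher and 424 lower. Leaving out either library of an ESC pair removes that whole pair from the ESC change. Cbx3 differed by -4.28 with the replicate 2 pair alone and by -2.90 with the replicate 1 pair alone. The median change over all genes was -0.06 in replicate 1 and 0.01 in replicate 2. The balance between directions thus depends on the scaling and on the pair used. Under the other scalings, the medians of the lists given below kept their sign except where stated. The list medians stand beside a median of -0.03 over all genes tested. Counts of called members stand beside the shares of 2.57% higher and 5.06% lower, and no list was tested as a set. Members named below from this fit only were chosen after their values were seen.

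RNAs of the primed epiblast were mostly lower and several naive-state RNAs higher, with exceptions on both sides. Of 18 tested genes of the primed epiblast, 8 were called lower and 2 higher in the 10-library fit, with a list median of -0.27. This is 55.6% called, against 7.63% of all genes tested. The 8 were Lef1, Sall2, the de novo DNA methyltransferase genes Dnmt3a and Dnmt3b, and the transcription factor genes Sox11, Foxd3, Sox3 and Pou3f1. Dnmt3b stood at 84.2 and 164 RPKM in Cbx3 siRNA ESCs and 120 and 218 RPKM in control ESCs, and Dnmt3a at 24.99 and 26.6 RPKM in Cbx3 siRNA ESCs and 40.0 and 32.1 RPKM in control ESCs. Dnmt3b was lower within each pair although its groups overlapped, and in Dnmt3a they did not overlap. The 2 called higher were the keratin genes Krt8, at 6.30 and 95.7 RPKM in Cbx3 siRNA ESCs against 4.59 and 40.7 RPKM in control ESCs, and Krt18, at 12.4 and 128 RPKM against 10.05 and 54.3 RPKM. Both keratins form the intermediate filaments of simple epithelia, both were far higher in replicate 2 than in replicate 1 of either treatment, and neither passed the 4-library test (adjusted p = 0.0807 for Krt8 and 0.118 for Krt18).

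Of the 32 naive and core pluripotency genes, 6 were called higher and 2 lower in the 10-library fit, with a list median of 0.08. The share called was 25%, against 7.63% of all genes tested. Nanog was the one member that also passed the 4-library test. It stood at 68.3 and 24.5 RPKM in Cbx3 siRNA ESCs, against 44.2 and 18.0 RPKM in control ESCs, and rose by 0.52 (SE 0.09, adjusted p = 0.0469), close to the threshold. The groups overlapped, and Nanog has 2 named pseudogenes. The others called higher were Tbx3 (log2 difference 0.68), Fbxo15 (0.60), Tcl1 (0.50), Stat3, the transcription factor that carries the LIF signal (0.40), and Fgf4 (0.37). The 2 called lower were Pou5f1, at 421 and 252 RPKM in Cbx3 siRNA ESCs against 536 and 308 RPKM in control ESCs (log2 difference -0.32, 10-library adjusted p = 0.01), and Dppa4 (-0.31). Sox2 stood at 126 and 72.1 RPKM in Cbx3 siRNA ESCs and 131 and 72.1 RPKM in control ESCs, Esrrb at 58.0 and 16.2 RPKM against 53.4 and 13.7 RPKM, Klf4 at 25.4 and 7.67 RPKM against 20.7 and 6.45 RPKM, and Zfp42 at 86.6 and 65.2 RPKM against 79.6 and 58.6 RPKM. None of these 4 was called in either fit, and each differed more between replicates than between treatments.

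**Figure D3:**
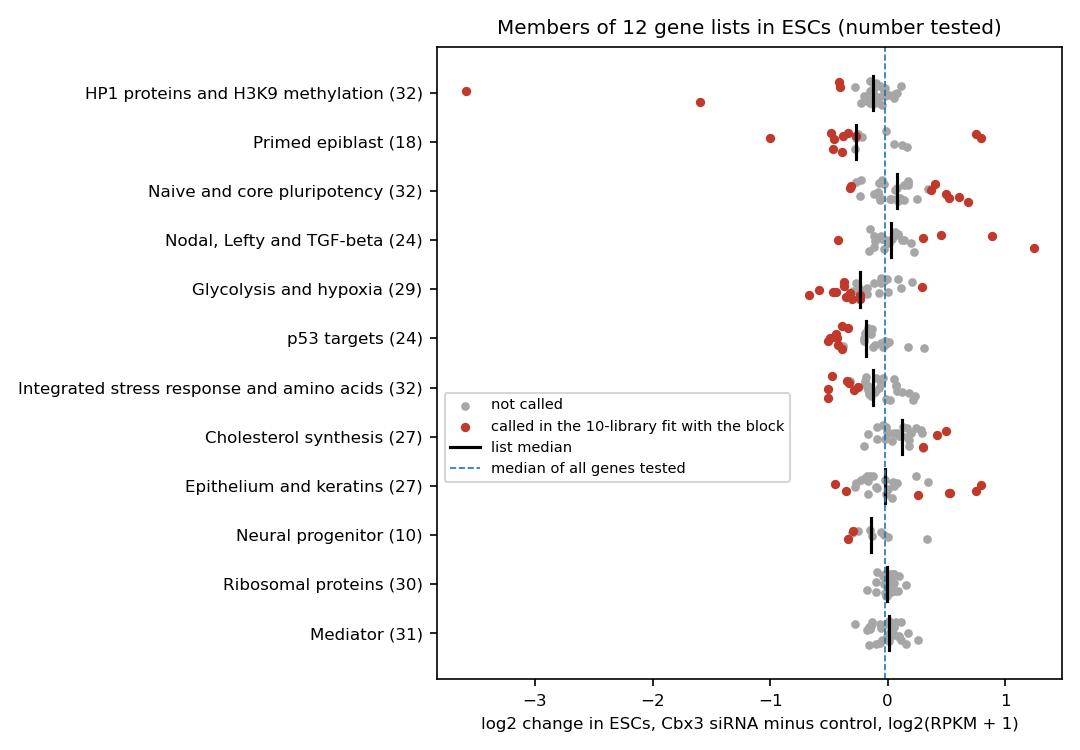
Log2 change in ESCs, Cbx3 siRNA minus control on log2(RPKM + 1), for the tested members of 12 gene lists (one row each, number tested in brackets), with red points for members called in the 10-library fit with the block, black bars for list medians and a dashed line for the median of all genes. The primed epiblast and glycolysis lists have medians of -0.27 and -0.23, and the ribosomal protein and Mediator lists hold no red point. Of all genes tested, 7.63% were called in the 10-library fit.

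Of 29 tested genes of glycolysis and hypoxia, 11 were called lower and 1 higher in the 10-library fit, with a list median of -0.23. The share called was 41.4%, against 7.63% of all genes tested. Pfkl and Pfkm, which encode the liver and muscle types of phosphofructokinase, fell in the 4-library test too. Pfkl stood at 48.4 and 26.6 RPKM in Cbx3 siRNA ESCs, against 85.3 and 38.8 RPKM in control ESCs, and fell by 0.67 (SE 0.09, adjusted p = 0.0258), and Pfkm stood at 10.2 and 9.16 RPKM against 15.96 and 14.02 RPKM and fell by 0.58 (SE 0.09, adjusted p = 0.0408). The Pfkl groups overlapped and the Pfkm groups did not. Aldoa, Eno1, Gpi1, Tpi1 and Pgam1, of the same pathway, were called lower in the 10-library fit with log2 differences of -0.35, -0.32, -0.30, -0.23 and -0.23, and the glucose transporter gene Slc2a3 was called higher (0.29) while Slc2a1 was called lower (-0.37).

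Of 24 tested p53 targets, 8 were called lower and 0 higher in the 10-library fit (list median -0.18). Sesn2, which encodes a stress-induced inhibitor of mTORC1, stood at 21.3 and 19.2 RPKM in Cbx3 siRNA ESCs, against 30.5 and 27.9 RPKM in control ESCs, and fell by 0.51 (SE 0.08, adjusted p = 0.0445) in the 4-library test without overlap. Mdm2, the ubiquitin ligase gene of p53 itself, was called lower in the 10-library fit only, at 37.1 and 30.0 RPKM in Cbx3 siRNA ESCs and 54.0 and 37.7 RPKM in control ESCs. Of 32 tested genes of the integrated stress response and amino acid supply, 7 were called lower and 0 higher in that fit (median -0.13), among them Sesn2, which is on both lists, and Atf4, the transcription factor at the centre of this response (-0.35). For cholesterol synthesis, 3 of 27 tested genes were called higher and 0 lower (median 0.12), among them Ebp (0.42) and Pmvk (0.30). In order, 33.3%, 21.9% and 11.1% of these lists were called, against 7.63% of all genes tested.

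Among 32 tested genes of HP1 proteins and H3K9 methylation, the 10-library fit called 4 lower and 0 higher (median -0.12). Beside Cbx3 and Ehmt2 these were Ehmt1, the partner of Ehmt2, at 14.5 and 13.5 RPKM in Cbx3 siRNA ESCs against 19.8 and 17.9 RPKM in control ESCs, and the H3K9 demethylase gene Kdm4c (-0.41). On this list 21 of 32 genes were lower in both pairs, against 36.6% of all genes tested. Polycomb genes divided, with Rnf2, Kdm2b (-0.46) and Phc1 (-0.33) called lower and Pcgf5 (0.52) higher of 27 tested. Of 15 tested DNA methylation genes, Dnmt3a and Dnmt3b alone were called. In order, 12.5%, 14.8% and 13.3% of these lists were called, against 7.63% of all genes tested. The siRNA target Cbx3 is counted on the first.

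In signalling, the 10-library fit called 4 of 24 tested Nodal, Lefty and TGF-beta genes higher and 1 lower, with a median of 0.03. The 4 included Lefty2, its paralogue Lefty1, at 126 and 136 RPKM in Cbx3 siRNA ESCs against 106 and 106 RPKM in control ESCs, and Ccn2 (0.45). Skil, which encodes a repressor of the same pathway, was the 1 called lower (-0.42). For Wnt, 3 of 18 tested genes were called lower (Lef1, Fzd7 and Lrp5) and 1 higher (Wnt7b), and for FGF and ERK signalling 3 of 19 lower (Dusp4 and Dusp6 among them) and 1 higher (Fgf4). In order, 20.8%, 22.2% and 21.1% of these lists were called, against 7.63% of all genes tested.

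Among nuclear transport genes, 4 of 26 tested were called higher in the 10-library fit (Tnpo2, Kpna4, Rangap1 and Ran) and 1 lower. The 1 was Tnpo1, the paralogue of Tnpo2, at 23.7 and 29.5 RPKM in Cbx3 siRNA ESCs against 33.9 and 40.8 RPKM in control ESCs (log2 difference -0.48, 10-library adjusted p = 0.0063), so the 2 transportin genes were called in opposite directions. In mTOR signalling and autophagy, 3 of 32 were called higher (Calcoco2, Gabarapl1 and Atg5) and 2 lower (Rptor and Sqstm1). Epithelial genes gave 5 higher (Krt8, Krt7, Krt18, Tgm1 and Sfn) and 2 lower (Jup and Cdh1) of 27, with a median whose sign depends on the scaling. Trophoblast genes gave 3 higher (Tfap2c, H19 and Krt7) of 9. Feeder fibroblast genes gave 2 higher (Col5a1 and Col5a2) and 1 lower (Mmp2) of 19. In order, 19.2%, 15.6%, 25.9%, 33.3% and 15.8% of these lists were called, against 7.63% of all genes tested.

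Several lists held no called member in the 10-library fit: 31 Mediator genes, 30 ribosomal protein genes, 25 genes of oxidative phosphorylation, 19 histone genes and 15 genes of muscle and the actin cytoskeleton. The list of mesoderm and primitive streak genes, with 3 tested, held none either. Over all genes tested 7.63% were called, so lists this small can hold no call without standing apart. None was tested as a set. The neural progenitor list had 2 of 10 called lower, Sox3 and Nes. The germline list had 0 of 12 called in the 4-library test and 1, Tex19.1, called higher in the 10-library fit, with a median of -0.08. Med26, the other target of the series, stood at 5.61 and 5.78 RPKM in Cbx3 siRNA ESCs and 6.02 and 6.01 RPKM in control ESCs. Of 17 genes of the 2-cell-like state 1 was tested. Zscan4c, a marker of that state, was under 1 RPKM in 3 of 4 libraries and was not tested. It stood at 1.87 and 0.624 RPKM in Cbx3 siRNA ESCs, against 0.214 and 0.128 RPKM in control ESCs, and Zscan4d at 1.90 and 0.562 RPKM against 0.157 and 0.146 RPKM. These near-identical genes may share reads. At the filter itself, 181 tested genes had a second-highest value from 1 to under 1.1 RPKM, Pcdh7 lowest at 1.001, and 185 untested genes from 0.9 to under 1 RPKM, Gm12359 highest at 0.999.

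The NPC libraries give a second look at the 70 genes, since they share no library with the ESC comparison. In the fit of 6 NPC libraries, which had no replicate block, Cbx3 siRNA called 1429 genes (12.6%), 839 higher (7.41%) and 590 lower (5.21%). Of the 70 genes, 42 were called in the same direction in NPCs, 2 in the opposite direction and 26 were not called. Of the 33 that fell in ESCs, 24 also fell in NPCs, and of the 37 that rose, 18 also rose. Among the 54 protein-coding genes these counts were 23 of 28 and 15 of 26. With a replicate block in the NPC fit, 3303 genes were called in NPCs, and 48 of the 70 in the same direction. The change in ESCs correlated with that in NPCs at r = 0.572 over all tested genes and at 0.752 over the 70 (0.684 without Cbx3), as a description across genes, which are not independent.

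Ehmt2 differed by -1.53 in NPCs (adjusted p = 0.000171), close to its ESC value of -1.60, and Septin2 by -0.90 against -0.82 in ESCs. Erlin2 and Rptor differed by -1.30 and -1.02 in NPCs, and Lefty2 and H1f6 by 0.84 and 0.99. Car2 and Tnpo2 had log2 changes of 1.57 and 1.33 in NPCs, and of 0.96 and 0.81 in ESCs. The difference between the 2 cell types was not called for any of these genes. Tested directly as an ESC minus NPC contrast over all 10 libraries with the block, 8 genes differed (0.0707%), 3 with a higher value in ESCs (0.0265%) and 5 with a lower one (0.0442%). Nanog was among them: its log2 change was 0.52 in ESCs and -0.30 in NPCs, and it passed in both, in opposite directions. None of the 3 genes with a higher value in ESCs was called in this contrast with a pseudocount of 0.1 or 0.5, with quantile normalization or with either ESC replicate 1 library left out. In NPCs Nanog stood at 20.2 and 18.4 RPKM with Cbx3 siRNA and at 24.3 and 23.5 RPKM with control siRNA. Cemip also differed, with 0.172 and 0.192 RPKM in Cbx3 siRNA NPCs and 0.149 and 0.0843 RPKM in control NPCs, where it was barely present in either group.

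**Figure D4:**
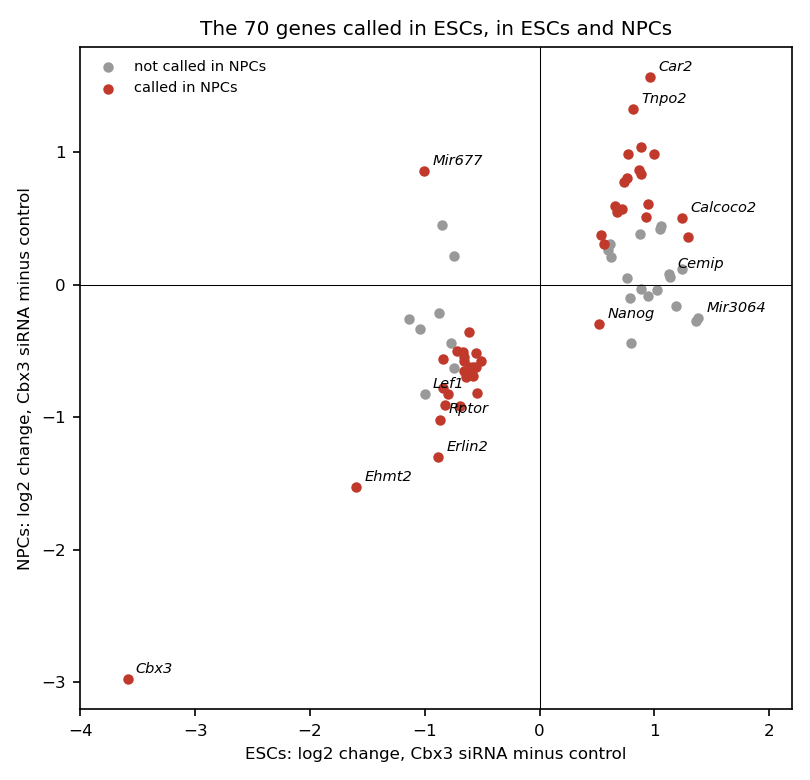
The 70 genes called in ESCs, each placed by its log2 change, Cbx3 siRNA minus control on log2(RPKM + 1), in ESCs (horizontal) and NPCs (vertical), with red points for genes that also passed in NPCs. Of the 70 points, 58 have the same sign in both cell types, and the 2 red points with opposite signs are Nanog and Mir677. Agreement in sign is not particular to the 70: of the 1429 genes called in NPCs, 1257 had the same sign in ESCs.

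A short sequence was shared by many of the transcripts that fell. The 7 letters GAGAGTT had been picked in an earlier look at the changes in these same data, so the shares describe and do not test. They were searched on the sense strand of 1 GENCODE M21 transcript a gene (build GRCm38), and 10711 genes with a 3′ UTR could be searched. Background is that a siRNA can also lower transcripts whose 3′ UTR pairs with the short seed of its guide strand. No source used here gives the sequences of the siRNAs, so whether GAGAGTT pairs with the Cbx3 siRNA was not tested. The sites below, in the siRNA target and in 5 of the genes that fell, are printed because the results above turn on these genes, with the 7 letters in capitals.
Cbx3: cacagacagcagcgGAGAGTTaa
Ehmt2: cgaggagccgccgaGAGAGTTca
Septin2: caggtagaacagaaGAGAGTTat
Erlin2: agggagagcagatgGAGAGTTgt
Rptor: tattttaccaaaatGAGAGTTga
Rnf2: tcctctgtacatttGAGAGTTta
The Cbx3 and Ehmt2 sites lie in the coding sequence, at transcript positions 640 to 646 (chromosome 6) and 105 to 111 (chromosome 17), counted from 1 at the 5′ end. The others lie in the 3′ UTR, at 1863 to 1869 in Septin2 (chromosome 1), 1321 to 1327 in Erlin2 (chromosome 8), 6506 to 6512 in Rptor (chromosome 11) and 2120 to 2126 in Rnf2 (chromosome 1). Of the 14 bases before the site, 3 in Ehmt2, 7 in Septin2, 1 in Erlin2, 2 in Rptor and 3 in Rnf2 are the same as in Cbx3. Erlin2 holds another site in its 3′ UTR, not printed, at 1659 to 1665, where 2 of the 14 bases are the same.

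Of the 28 searched genes that fell in ESCs, 14 held GAGAGTT in the 3′ UTR (50.0%) and 20 anywhere in the transcript (71.4%). The siRNA target Cbx3 is counted among the 28 and the 20. Of the 26 searched genes that rose, 1 held it in the 3′ UTR (3.85%) and 2 in the transcript. Over all 10711 genes the shares were 8.44% and 19.102%. In the 10-library fit, 29.9% of 556 genes called lower and 3.85% of 260 called higher held it in the 3′ UTR. Of the 20 genes that fell and hold the letters, 18 also fell in NPCs, the target Cbx3 among them, as did 5 of the 8 searched genes that fell and do not hold them. The genes with the letters include Ehmt2, Septin2, Erlin2, Rptor, Lztr1, Pfkl, Pfkm, Rnf2, Kat2b, Tlk1 and Sesn2, whereas Lef1, Epha1, Pml and Apela have none in the transcript searched.

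The shift reached beyond the called genes. The median log2 change was -0.15 for the 102 genes with at least 2 copies in the 3′ UTR, -0.10 for the 802 with 1 copy and -0.02 for the 9807 with none. It was lower with more copies in each pair, at -0.18, -0.15 and -0.06 in replicate 1 and -0.10, -0.07 and 0.01 in replicate 2, in the same order. Genes with more copies also have longer 3′ UTRs, with median lengths of 3687, 2173 and 856 bases, and the part of length in this difference was not tested.

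**Figure D5:**
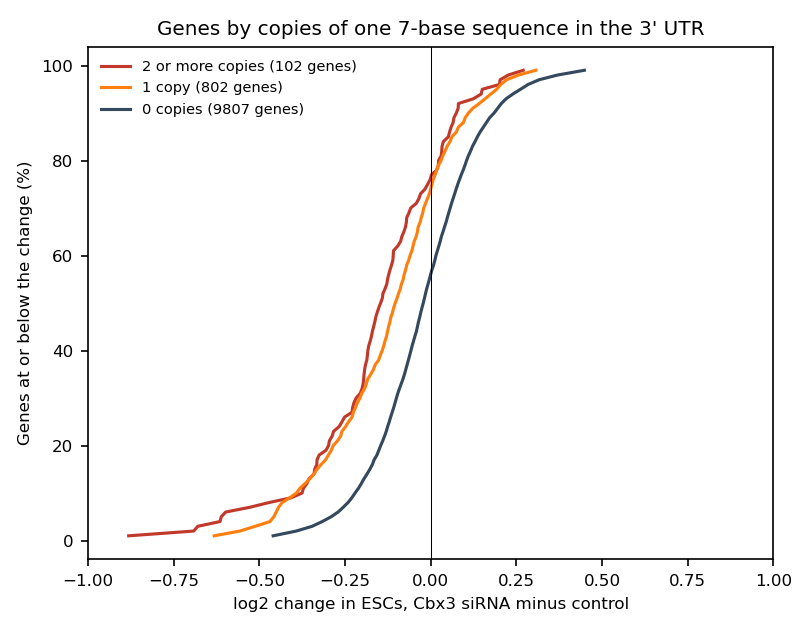
Cumulative share of genes (vertical, %) at or below a given log2 change in ESCs, Cbx3 siRNA minus control (horizontal), for genes with at least 2 copies, 1 copy and 0 copies of GAGAGTT in the 3′ UTR. The curves for 1 and for 2 or more copies lie left of the curve for 0 copies over most of the range, with medians of -0.15, -0.10 and -0.02 from most to fewest copies.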

How the data were processed

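The authors deposited RPKM values per RefSeq transcript for each library; the submitters' processing notes name TopHat2 2.08 and mm9, and no source used here gives the counting tool, annotation release or use of strand. Libraries were made with a TruSeq kit from Trizol RNA, per the labels' protocols. Of 35860 table rows, 99.07% matched a symbol in the RefSeq table of GRCm38.p6 (334 did not), and the row with the highest mean stood for a gene. No coordinates on mm9 were used. Depth was estimated from steps in low values; 71.8% to 73.4% of these in the ESC libraries lay within 0.1 of a whole step, too few to recover reads.

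Differences in log2(RPKM + 1), which understates changes of low genes, were tested with limma 3.58.1 in R 4.3.3 (intensity trend, two-sided, Benjamini-Hochberg adjustment at 0.05 over all genes tested), with the replicate number as a block. Labels do not state pairing; deviations of same-numbered libraries from their group means correlated at r = 0.899 across genes. On simulated data the fit recovered 100% of changes of 1 and 1.5 (log2), with 9 false calls among 11315 genes. The comparison and the 38 gene lists were chosen with earlier results of these data known. Named were a set of 20 genes, the 12 largest called changes in each direction, up to 4 called members per list and the leading genes of the NPC contrasts; others were chosen after their values were seen. Alternatives covered the block, libraries, pseudocount, filter, scaling, rows per gene, variance trend and left-out libraries. Some genes are not reported here.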

Additional observations from a re-analysis of the deposited data

Results flagged for a closer look

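The difference between the ESC and the NPC change after Cbx3 siRNA passed limma's test with the replicate block (adjusted p under 0.05 over all genes) for 8 genes. It was 1.63 on the log2(RPKM + 1) scale for Mir3064, 1.05 for Cemip and 0.81 for Nanog, where the value was higher in ESCs. It was -1.86 for Mir677, -1.14 for S100a6, -0.98 for Tgm1, -0.90 for Ier3 and -0.74 for Romo1, where it was lower in ESCs. Ier3, an immediate early gene, stood at 9.997 and 10.9 RPKM in Cbx3 siRNA ESCs and 9.29 and 9.58 RPKM in control ESCs, and at 10.8 and 10.4 RPKM in Cbx3 siRNA NPCs and 4.66 and 4.69 RPKM in control NPCs. S100a6, which encodes a calcium-binding protein, stood at 73.0 and 160 RPKM in Cbx3 siRNA ESCs and 70.3 and 114 RPKM in control ESCs, and at 90.7 and 90.5 RPKM in Cbx3 siRNA NPCs and 33.1 and 33.9 RPKM in control NPCs. For both genes the levels in ESCs with either siRNA were near or above those in Cbx3 siRNA NPCs, and the control NPCs were the low group. The number of such genes moved widely with the ESC pair kept when 1 ESC library was left out.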

How the results depend on the processing

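Calls rest on the replicate block. Without the replicate block limma called 0 genes in the 4 ESC libraries (119 at an unadjusted p under 0.05; Cbx3 -3.59, adjusted p = 0.9998) and 0 over all 10 libraries (625 unadjusted; Cbx3 -3.59, adjusted p = 0.297; 0 for the ESC minus NPC contrast, 192 unadjusted). Without a filter 0 of 24520 genes were called (1944 unadjusted; Cbx3 -3.59, adjusted p = 0.595), and with robust estimation 54, with Cbx3 at -3.59 and adjusted p = 0.1245. The 70 calls became 863 with 10 libraries and the block, 790 with a median shift added, 134 with quantile normalization, 15 without the variance trend and 150 without short RNA genes. The fits without short RNA genes and with 10 libraries and the shift were chosen after seeing the data. Leaving out 1 ESC library (10 libraries, block) gave 683, 684, 910 and 914 calls and a Cbx3 change of -4.28 to -2.90; the lone library is assumed to vary like the others. The 58 genes moved 1.5-fold in both pairs became 138 and 92 with pseudocounts of 0.1 and 0.5, 28 with a mean of at least 5 RPKM, and 6 at 2-fold. The 8 genes of the ESC minus NPC contrast (3 higher, 5 lower in ESCs) became 3 and 4 with those pseudocounts (0 higher in both), 14 without a filter, 5 with a mean of at least 5 RPKM, 4 with quantile normalization (0 higher), 3 without the trend, 16 with robust estimation, 26 without short RNA genes, and 3 to 921 without 1 library (921 without Cbx3 siRNA or control replicate 2). The 42 ESC calls also called in NPCs became 398 with 10 libraries and the block, 380 with the shift added, 86 with quantile normalization, 6 without the trend, 104 without short RNA genes and 231, 232 and 445 without 1 library; where no ESC gene was called no count was possible. These counts move with the number of ESC calls they start from. The cause of the other shifts was not tested. No named gene's direction reversed in the ESC comparison. The balance of calls did: 37 higher and 33 lower became 29 and 38 with a mean of at least 5 RPKM and 56 and 94 without short RNA genes. It became 23 and 26 with a pseudocount of 0.1, and was even at 27 and 27 with robust estimation. In the 10-library fit, with 291 higher and 572 lower, it also reversed when only the replicate 2 pair was kept. With 2 libraries a group and 23.2 M to 51.3 M estimated reads, genes of 1 kilobase at 1 RPKM rest on 23.2 to 51.3 reads. This holds only if 1 step is 1 read in each library, which was not tested. No change under 0.51 (log2) passed the 4-library test.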
